A study of Mus musculus with 8 samples.

Results

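Mouse bone-marrow derived macrophages kept for 24 h with the cytokine IL4 were compared with macrophages left unstimulated for the same time. The 3 IL4 libraries and the 2 unstimulated libraries were taken by the group line of the deposited table, which makes 5 of the 8 libraries of the series. All cells came from C57BL/6 mice with no further genotype in the labels, were differentiated from marrow in culture and were plated in the wells of a multi-well plate. The other 3 libraries, from cells given bacterial lipopolysaccharide and interferon gamma (LPS plus IFNg) for 24 h, entered the fit so that all groups shared an estimate of the spread, and they are also used below as a comparison. The labels name no dose, and whether replicates are separate mice or wells is not stated, so the p-values rest on a spread between libraries that may be technical. RNA was sequenced from its polyadenylated end only. Values are quantile-normalised log2 levels as the authors deposited them, in which 1 unit is a doubling.

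IL-4 is a cytokine of type 2 immunity. It binds IL-4 receptor alpha, which pairs with the common gamma chain or with IL-13 receptor alpha 1, and Janus kinases on these chains phosphorylate the transcription factor STAT6. In macrophages STAT6 then switches on the programme called alternative activation, with arginase, lectins, chitinase-like proteins and chemokines that attract eosinophils and T helper 2 cells, together with inhibitors that end the signal. The programme is known from helminth infection, allergy and tissue repair.

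The table held 20258 genes with a symbol, of which 13615 varied among the libraries and were tested. Depth is unknown, since the table holds no counts. Zeros among the tested genes numbered 1577 and 2588 in the unstimulated libraries, 3204 to 3568 in the IL4 libraries and 2964 to 2985 in the LPS plus IFNg libraries, so every stimulated library had more zeros. A gene listed at 0 may be one with no reads, and no fold is given against a group that is at 0 throughout. Across genes, Pearson's r was 0.928 between the unstimulated libraries, 0.838 to 0.874 between IL4 libraries and 0.81 to 0.841 between the groups, where genes are not independent replicates. Macrophage markers fitted the label: 18 of the 27 macrophage identity genes, among them Csf1r, Emr1 (F4/80), Cd68 and Lyz2, had a mean of at least 8 over the 5 libraries and none was at 0 throughout. Of 20 markers of T, B and NK cells, 8 were listed at 0 in all 5 libraries, among them Cd3e, Cd8a and Ncr1. A mean of at least 8 was also reached by 4 of 16 fibroblast markers (Acta2, Col1a1, Col1a2 and Sparc) and 2 of 15 neutrophil markers (S100a8 and S100a9). So did 3 of 19 dendritic cell markers (Irf8, Itgax and Sirpa) and 1 of 16 erythroid and megakaryocyte markers (Pf4).

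With IL4, 70 genes were higher (0.514% of those tested) and 108 lower (0.793%) at an adjusted p of 0.05 in limma, a linear model fitted to every gene. The counts of called list members below are to be read against these shares. In each of these 178 genes every IL4 library lay on the same side of both unstimulated libraries, whereas over all tested genes such a separation was found in 11.7% with IL4 higher and in 14.7% with IL4 lower. Where both group means were 5 or more (6796 genes), 39 rose (0.574%) and 68 fell (1.0%). In this well-measured set the median size was a log2 change of 2.16 for the rises, with a range from 1.05 to 5.56, and -1.96 for the falls, which reached 3.78 in size. The median change over all tested genes was -0.01. In these bulk libraries fewer cells of a type and less RNA per cell cannot be told apart.

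The calls depended on the libraries and genes in the fit. With only the 5 libraries, among which 12988 genes varied and were tested, 7 genes were higher and 0 lower (743 and 767 at an unadjusted p under 0.05), and with the same 5 libraries and all 13615 genes, an alternative chosen after seeing the data, 16 were higher and 54 lower. The 7 were Arg1, Tmem26, Mgl2, Retnla, Hbegf, Chi3l3 and Slc7a2. When each of the 8 libraries was left out in turn, 19 of the 70 rises and 27 of the 108 falls passed every time, and a gene is called stable below where it did. Scaling to equal housekeeping genes raised the IL4 changes by 0.114 at the median and gave 72 rises and 73 falls, so the share of rises among called genes was 49.7% in place of 39.3%. Of the 70 rises 58 were called again with this scaling, and of the 108 falls 73.

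**Figure D1:**
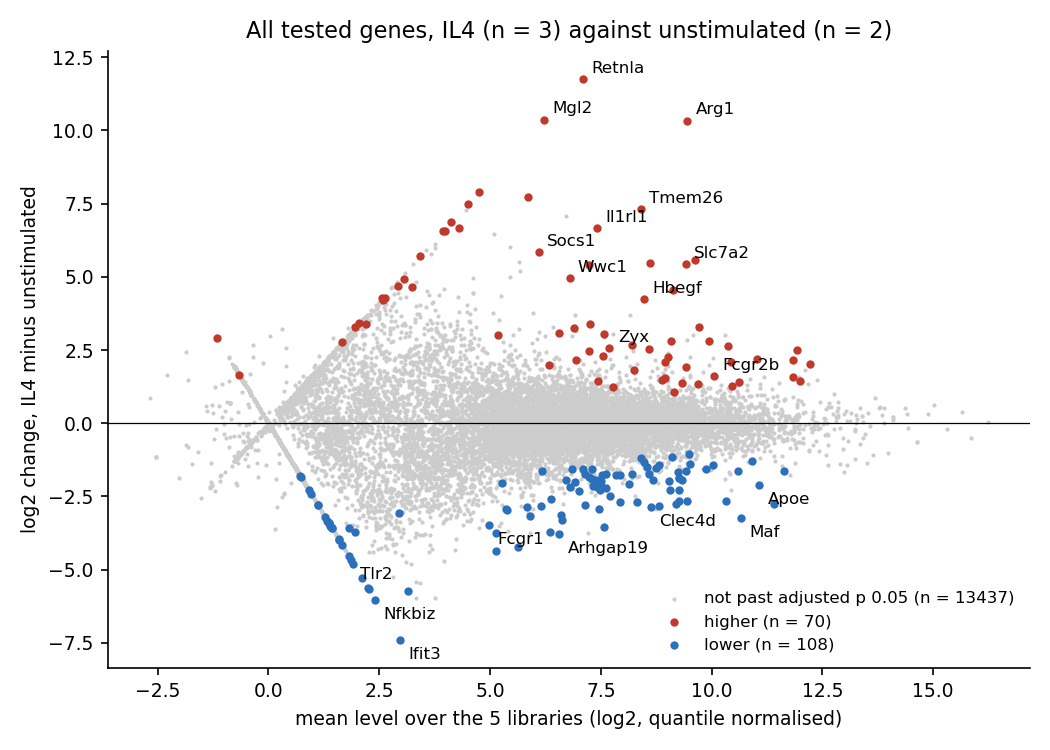
Log2 change with IL4 (vertical axis) against the mean level over the 5 libraries (horizontal axis, log2) for all 13615 tested genes, with the 70 higher and 108 lower genes coloured and some of them named. Most genes lie near 0, and the named rises reach from Fcgr2b at 1.60 to Retnla at 11.76.

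The well-known markers serve here as a check of the label. Of 28 tested genes of alternative activation 10 rose and none fell, with a median change of 3.22 against -0.01 over all tested genes. Arg1, which cleaves arginine, was at 2.31 and 4.19 without stimulus and at 13.64, 13.41 and 13.69 with IL4 (log2 change 10.33, SE 0.48, adjusted p = 0.000335). Mgl2, a galactose-binding lectin, had a value of 0 in each unstimulated library and stood at 10.19, 10.76 and 10.16 with IL4. Mrc1, the mannose receptor, was higher in each IL4 library (11.64 to 12.51) than in the unstimulated ones (11.02 and 10.41) without passing the test (log2 change 1.36, adjusted p = 0.109). So the labels and the markers go the same way in all 5 libraries.

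Few genes of the machinery that receives the IL4 signal passed the test, while 3 inhibitors of cytokine signalling rose by more than 5 log2 units. Of 26 genes for receptor chains and signal transduction 1 rose and 2 fell, with a median of -0.02. Of the 8 SOCS family genes, counted with Cish, 3 rose and none fell, with a median of 1.51. Socs1, which blocks Janus kinases, was at 3.05 and 2.14 without stimulus and at 8.35, 8.34 and 8.61 with IL4 (log2 change 5.84, SE 0.30, adjusted p = 0.000488). Cish, an inhibitor best known downstream of STAT5, was at 0 and 2.43 without stimulus and at 9.22, 9.49 and 8.13 with IL4 (log2 change 7.73, SE 0.84, adjusted p = 0.0134). Socs2, an inhibitor known from growth hormone signalling, was at 5.83 and 4.82 against 11.05, 9.54 and 11.83 (log2 change 5.48, SE 0.80, adjusted p = 0.0265). For each of these genes the lowest IL4 library lay more than 3 units above the highest unstimulated one. Socs6 had values of 7.05 and 7.13 against 8.49, 9.35 and 8.33 and did not pass (log2 change 1.63, adjusted p = 0.145). Socs3 was near 0 in 4 of the 5 libraries and at 2.26 in IL4 replicate 3.

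Among the kinases and receptor chains, Jak2 rose, from 6.05 and 5.26 to 8.40, 7.59 and 7.39 (log2 change 2.14, SE 0.37, adjusted p = 0.0461). Il4ra, the ligand-binding chain, was at 5.05 and 3.35 without stimulus and at 4.67, 3.97 and 4.12 with IL4, so the groups overlapped (log2 change 0.05, SE 0.64). Stat6 overlapped as well, at 8.90 and 8.05 against 8.46, 8.73 and 7.83 (log2 change -0.13, SE 0.41). Il13ra1 was at 3.38 and 0 against 4.02, 3.84 and 4.12, which did not pass (adjusted p = 0.446). The directions for Il4ra and Stat6 changed with the library left out. The ubiquitin ligase Cblb, which restrains receptor signalling, rose from 8.43 and 8.60 to 9.70, 10.08 and 9.89 (log2 change 1.38, SE 0.20, adjusted p = 0.0272). Inpp5d, the lipid phosphatase SHIP1 that opposes PI3 kinase, fell from 9.07 and 9.15 to values between 7.88 and 8.004 (log2 change -1.17, SE 0.19, adjusted p = 0.0396). Parp14, an ADP-ribosyltransferase known as a co-factor of STAT6 and also induced by interferon, fell from 8.70 and 9.11 to 7.13, 7.02 and 7.24 (log2 change -1.77, SE 0.19, adjusted p = 0.0134). Socs1, Cish and Parp14 were stable. Jak2 and Inpp5d lost their calls whichever library was left out (adjusted p up to 0.187 and 0.095), Cblb in all cases but unstimulated replicate 2 (up to 0.0695), and Socs2 without any library other than IL4 replicate 2 or the first LPS plus IFNg library (up to 0.172).

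The promoters of some called genes, rises and falls alike, carry the letters that STAT6 and interferon-activated factors are known to read. STAT6 prefers the palindrome TTCNNNNGAA, other STAT proteins the shorter TTCNNNGAA, and interferon regulatory factors repeats such as GAAANNGAAA. The 250 bases upstream of each start site were searched on both strands in RefSeq sequences of GRCm38.p6, a newer build than the mm9 alignment, with 54 of the 70 higher and 81 of the 108 lower genes matched. The STAT motifs read the same on either strand, GAAANNGAAA was also sought as its reverse complement, and matches to different motifs may overlap. TTCNNNNGAA was found in 4.88% of the 13779 windows of tested genes, in 6.15% of the 65 windows of higher genes (Ccl17, Pard6a, Retnla and Tmem26) and in 8.0% of the 100 windows of lower genes (Cd5l, Fyb, Galnt9, Ifi203, Inpp5d, Limd2, Nlrp1b and Sepp1). Its share among the higher genes was near that of all tested genes and below that of the lower genes, and these shares were not tested. TTCNNNGAA was found in 6.21%, 6.15% and 3.0%. GAAANNGAAA was found in 2.74%, 7.69% and 15.0%, and among higher genes it lay in the windows of Fosl2, Mmp13, Plk2, Socs1 and Srgn. Among lower genes it lay in those of Aif1, Chek1, Cxcl10, Gm12250, I830012O16Rik, Ifi203, Ifit1, Ifit3, Rsad2, Sepp1, Serpinb6a, Slfn8 and Trim30a. Sepp1 and Slfn8 each had overlapping windows with the same site, which was counted in each window. A match is a description of the letters and no evidence of binding. The windows of 3 strong risers and 3 interferon-induced genes that fell are shown, chosen because they carry a motif, so that its letters can be seen beside the expression values; they are not typical of the rises or falls. Capitals mark the motifs (TTCNNNNGAA in the risers, with TTCNNNGAA as well for Ccl17; GAAANNGAAA or its reverse complement in the others). Retnla lies at chr16:48842359-48842608 (plus strand), Ccl17 at chr8:94810203-94810452 (plus), Tmem26 at chr10:68723496-68723745 (plus), Ifit3 at chr19:34583279-34583528 (plus), Ifit1 at chr19:34640639-34640888 (plus) and Rsad2 at chr12:26456453-26456702 (minus).
Retnla: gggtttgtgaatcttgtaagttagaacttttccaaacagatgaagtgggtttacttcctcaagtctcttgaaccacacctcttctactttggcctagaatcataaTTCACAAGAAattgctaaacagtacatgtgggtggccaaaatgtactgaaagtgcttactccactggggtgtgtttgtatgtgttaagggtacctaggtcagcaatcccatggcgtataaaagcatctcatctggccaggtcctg
Ccl17: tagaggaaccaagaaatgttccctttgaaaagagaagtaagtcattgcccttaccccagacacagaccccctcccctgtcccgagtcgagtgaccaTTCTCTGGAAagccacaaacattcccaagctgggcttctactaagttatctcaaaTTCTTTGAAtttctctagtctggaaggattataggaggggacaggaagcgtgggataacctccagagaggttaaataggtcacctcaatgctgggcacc
Tmem26: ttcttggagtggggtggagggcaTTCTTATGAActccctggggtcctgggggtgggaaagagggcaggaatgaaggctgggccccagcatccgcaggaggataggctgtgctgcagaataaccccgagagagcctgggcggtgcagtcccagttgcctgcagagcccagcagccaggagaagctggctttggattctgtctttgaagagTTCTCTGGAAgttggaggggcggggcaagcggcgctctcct
Ifit3: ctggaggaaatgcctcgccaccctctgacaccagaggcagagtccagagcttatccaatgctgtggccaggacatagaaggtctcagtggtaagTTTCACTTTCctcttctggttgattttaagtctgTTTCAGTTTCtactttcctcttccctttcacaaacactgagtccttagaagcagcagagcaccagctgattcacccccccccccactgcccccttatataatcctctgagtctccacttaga
Ifit1: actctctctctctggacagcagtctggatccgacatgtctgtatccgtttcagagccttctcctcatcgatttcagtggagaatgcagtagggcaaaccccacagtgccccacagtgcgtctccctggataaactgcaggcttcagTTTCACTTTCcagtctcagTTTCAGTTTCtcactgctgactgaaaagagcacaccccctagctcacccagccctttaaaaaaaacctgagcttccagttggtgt
Rsad2: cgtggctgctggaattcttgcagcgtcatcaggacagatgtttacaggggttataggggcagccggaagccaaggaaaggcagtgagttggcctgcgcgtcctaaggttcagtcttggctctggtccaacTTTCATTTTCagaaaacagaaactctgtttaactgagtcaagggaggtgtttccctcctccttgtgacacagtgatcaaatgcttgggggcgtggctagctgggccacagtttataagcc

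Retnla, whose product is a small secreted protein of the resistin family, was at 0.07 and 0 without stimulus and at 12.41, 11.51 and 11.47 with IL4 (log2 change 11.76, SE 0.65, adjusted p = 0.000656), and it was stable. Tmem26, a transmembrane protein otherwise known as a marker of beige fat cells, was at 4.36 and 3.68 without stimulus and at 11.11, 11.61 and 11.29 with IL4 (log2 change 7.31, SE 0.99, adjusted p = 0.0215). The IL4 libraries lay close together for Tmem26, while the LPS plus IFNg libraries, which enter its spread, stood at 0.75, 4.61 and 3.13. Its call was lost when any library but LPS plus IFNg replicate 1 or 2 was left out (adjusted p up to 0.134).

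Chemokines were a main class of secreted product that rose. Of 27 tested chemokines 6 rose (Ccl2, Ccl7, Ccl9, Ccl17, Ccl22 and Ccl24) and 1 fell, Cxcl10, with a list median of 0.90. Among all tested genes 0.514% rose and 0.793% fell. Ccl7, a chemokine for monocytes and eosinophils, was at 5.87 and 6.93 without stimulus and at 10.66, 11.36 and 10.83 with IL4 (log2 change 4.55, SE 0.35, adjusted p = 0.00435). Ccl2, the main monocyte chemokine, was at 7.38 and 8.12 against 10.44, 11.60 and 11.04 (log2 change 3.28, SE 0.40, adjusted p = 0.0144). Ccl9, a CCR1 ligand, started from a high level, at 10.72 and 11.06, and stood at 12.55, 12.43 and 12.39 with IL4 (log2 change 1.57, SE 0.18, adjusted p = 0.0137). Thus monocyte-attracting chemokines rose alongside the CCR4 ligands Ccl17 and Ccl22, which attract T helper 2 cells. Ccl17 was at 0 and 0.20 against 4.36, 4.89 and 5.17 (log2 change 4.70, SE 0.61, adjusted p = 0.0177). Ccl22 was at 0.12 and 0 against 6.25, 7.28 and 6.31 (log2 change 6.55, SE 1.06, adjusted p = 0.0372). Ccl24, which attracts eosinophils, had a value of 0 in each unstimulated library and stood at 4.90, 6.06 and 6.17 with IL4 (adjusted p = 0.0163). Ccl7 and Ccl9 were stable. Ccl2 was lost without unstimulated replicate 1 (adjusted p = 0.0653), Ccl24 without LPS plus IFNg replicate 2 (0.0501), Ccl17 without LPS plus IFNg replicate 2 or 3 (up to 0.0551) and Ccl22 in all cases but LPS plus IFNg replicate 3 (up to 0.118).

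Growth factors and matrix-linked products rose in single genes, where 0.514% of all tested genes rose. Of 42 genes listed as cytokines and growth factors 1 rose and none fell, with a median of 0. It was Hbegf, a ligand of the epidermal growth factor receptor that is shed from the cell surface. Outside that list, Tnfsf15 of the TNF family rose from 0.10 and 0 to 3.76, 4.83 and 4.20 (log2 change 4.21, adjusted p = 0.0485). Ctgf, connective tissue growth factor, fell from 9.25 and 9.30 to 8.11, 7.65 and 8.07 (log2 change -1.33, adjusted p = 0.033). Hbegf was at 5.77 and 6.10 without stimulus and at 10.06, 10.58 and 9.87 with IL4 (log2 change 4.24, SE 0.30, adjusted p = 0.00267), was stable, and stood at 6.21 to 6.78 with LPS plus IFNg. Of 60 matrix genes, proteases and inhibitors 2 rose and none fell, namely the collagenase Mmp13 and the urokinase receptor Plaur. Mmp13 went from 8.37 and 9.21 to 10.72, 12.10 and 11.50 (log2 change 2.65, SE 0.41, adjusted p = 0.0328), and Plaur from 5.38 and 6.15 to 7.73, 8.76 and 8.17 (log2 change 2.45, SE 0.39, adjusted p = 0.0366). Mmp12, the macrophage elastase, was already at 14.79 and 14.50 without stimulus and at 15.30, 15.54 and 14.96 with IL4 (adjusted p = 0.44). Gpc1, a cell surface heparan sulphate proteoglycan, and Igfbp5, which binds insulin-like growth factors, rose by 2.31 and 3.26 (adjusted p = 0.0317 and 0.0328), whereas Igfbp4 fell by 1.87 (adjusted p = 0.0223). Of these, Mmp13, Plaur, Gpc1 and Igfbp5 each lost their call without 7 or 8 of the libraries in turn (adjusted p up to 0.151, 0.109, 0.114 and 0.0942), and Igfbp4 without unstimulated replicate 1 or 2, IL4 replicate 1 or the second LPS plus IFNg library (up to 0.0796).

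Single receptors for other cytokines and growth factors rose from low values. Of 46 interleukin and interferon receptors 2 rose and none fell, with a median of 0, where 0.514% of all tested genes rose and 0.793% fell. Il1rl1, the receptor ST2 for the alarmin IL-33, was at 4.40 and 2.43 without stimulus and at 9.50, 10.27 and 10.47 with IL4 (log2 change 6.66, SE 1.04, adjusted p = 0.0328). Il31ra, a receptor chain for the itch cytokine IL-31, had a value of 0 in every library without IL4 and stood at 5.14, 6.87 and 8.62 with IL4 (adjusted p = 0.0334). Gfra2, a receptor for the neurotrophic factor neurturin, was at 0.62 and 0 against 7.57, 5.31 and 8.04 (log2 change 6.66, SE 1.01, adjusted p = 0.0294). Thus all 3 were low or at 0 without stimulus and above 5 in every IL4 library. Each lost its call without 6 of the 8 libraries in turn, both unstimulated ones included (adjusted p up to 0.165, 0.12 and 0.101).

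The 2 called Fc receptors for antibody moved in opposite directions. Fcgr2b, the inhibitory receptor for IgG, rose from 9.15 and 9.04 to 10.67, 10.54 and 10.88 (log2 change 1.60, SE 0.18, adjusted p = 0.0136). Fcgr1, the activating high-affinity receptor, fell from 6.74 and 7.37 to 2.60, 3.52 and 4.62 (log2 change -3.48, SE 0.57, adjusted p = 0.0392). Fcer1g, the signalling chain that activating receptors share, was lower in every IL4 library, at 10.69 to 10.94 against 11.62 and 11.91, and missed the threshold (log2 change -0.96, adjusted p = 0.0579). In the list of 15 Fc receptor and signalling genes 2 rose (Fcgr2b and Cblb, which is no receptor) and 1 fell. The list median was -0.89, with 4 not overlapping and higher and 5 not overlapping and lower. Fcgr2b was stable, and Fcgr1 lost its call in all cases but IL4 replicate 3 (adjusted p up to 0.205). MHC class II genes, which present antigen, had a median of 1.07 over 13 genes, with 7 not overlapping and higher and 1 not overlapping and lower (11.7% and 14.7% of all tested genes), and only H2-DMa passed (3.41 and 3.35 against 6.31, 6.57 and 6.27, adjusted p = 0.0266). Their summed linear level was lower with IL4, at 13674.6 to 21906.2 against 28585.7 to 30629.8. The list also holds proteases that process antigen, and the highest values in it, which make up most of the sum, were those of the proteases Lgmn (14.14 and 13.69 against 12.75, 12.66 and 12.04, adjusted p = 0.0919) and Ctss (13.54 and 13.84 against 13.69, 13.25 and 13.01, adjusted p = 0.765). H2-DMa was lost without any single IL4 or LPS plus IFNg library (up to 0.0734).

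Some transcription factors rose, among them immediate early genes. Of 38 factors linked to the IL-4 response 4 rose and 1 fell, with a median of 0.27. Of 28 immediate early genes 3 rose and none fell, with a median of 0.76. The shares of all tested genes were 0.514% higher and 0.793% lower. Bhlhe40, a basic helix-loop-helix repressor, went from 7.81 and 8.70 to 10.84, 11.42 and 10.89 (log2 change 2.80, SE 0.41, adjusted p = 0.0271). Klf4, a zinc-finger factor known to cooperate with STAT6, went from 7.55 and 7.24 to 10.37, 9.51 and 10.73 (log2 change 2.81, SE 0.36, adjusted p = 0.0176). Fosl2, a subunit of AP-1, went from 7.48 and 7.86 to 9.89, 10.16 and 9.72 (log2 change 2.26, SE 0.35, adjusted p = 0.0324). The fourth was Ppargc1b, a coactivator of mitochondrial and fatty acid oxidation genes, at 5.84 and 4.60 against 8.63, 7.88 and 9.34 (log2 change 3.39, SE 0.57, adjusted p = 0.0434). Klf4 was lost without either unstimulated library or IL4 replicate 1 (adjusted p up to 0.108), and Bhlhe40, Fosl2 and Ppargc1b without 6 or 7 of the 8 libraries (up to 0.113, 0.139 and 0.212).

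Other factors known from alternative activation were higher in the IL4 libraries and did not pass. Irf4, a known STAT6 target, was at 4.48 and 0.62 without stimulus and at 7.58, 8.07 and 7.58 with IL4 (log2 change 5.19, SE 1.17, adjusted p = 0.105). Myc was at 7.52 and 8.57 against 10.05, 10.18 and 9.19 (log2 change 1.77, adjusted p = 0.178). Egr2 was at 7.69 and 7.47 against 9.71, 8.64 and 9.75 (log2 change 1.79, adjusted p = 0.477), and Pparg at 7.44 and 7.61 against 8.31, 8.27 and 8.37 (log2 change 0.79, adjusted p = 0.847). In all 4 the groups did not overlap. For Egr2 and Pparg the LPS plus IFNg libraries, which enter the spread, ranged from 2.66 to 5.57 and from 0 to 4.24.

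Further rises were found among genes of adhesion, the cytoskeleton and intracellular signalling. Zyx, a focal adhesion protein that binds actin regulators, was at 6.08 and 6.23 without stimulus and at 8.59, 8.75 and 8.82 with IL4 (log2 change 2.57, SE 0.21, adjusted p = 0.0057). Wwc1, the scaffold KIBRA of the Hippo pathway, was at 3.23 and 4.41 against 9.07, 9.11 and 8.15 (log2 change 4.95, SE 0.51, adjusted p = 0.0134). Clic4, an intracellular chloride channel protein, was at 10.89 and 11.13 against 13.05, 12.80 and 13.24 (log2 change 2.02, SE 0.23, adjusted p = 0.0142). These 3 were stable. So were Fyn, a Src family kinase, and Prkcd, protein kinase C delta, which were chosen for mention after their values were seen. Fyn rose from 8.13 and 8.42 to 10.33, 9.99 and 10.25 (log2 change 1.92, SE 0.21, adjusted p = 0.0134), and Prkcd from 9.18 and 9.19 to 11.55, 11.19 and 11.10 (log2 change 2.09, SE 0.23, adjusted p = 0.0134). Ptpre, a receptor-type tyrosine phosphatase, reached one of the higher levels, from 10.76 and 10.10 to 12.76, 12.92 and 13.15 (log2 change 2.52, SE 0.33, adjusted p = 0.0184), and was lost without unstimulated replicate 2 (adjusted p = 0.0981) or LPS plus IFNg replicate 2 (0.0541). Scn3a, a neuronal sodium channel subunit, had a value of 0 in every library without IL4 and stood at 8.66, 7.80 and 6.02 with IL4 (adjusted p = 0.0174, and 0.0559 without unstimulated replicate 2). In their lists, 2 of 48 actin and motility genes rose (Zyx and Myo1e) and 1 fell (Marcksl1), and 2 of 90 ion channels rose (Clic4 and Scn3a), with medians of 0.04 and 0. Over all tested genes 0.514% rose and 0.793% fell.

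**Figure D2:**
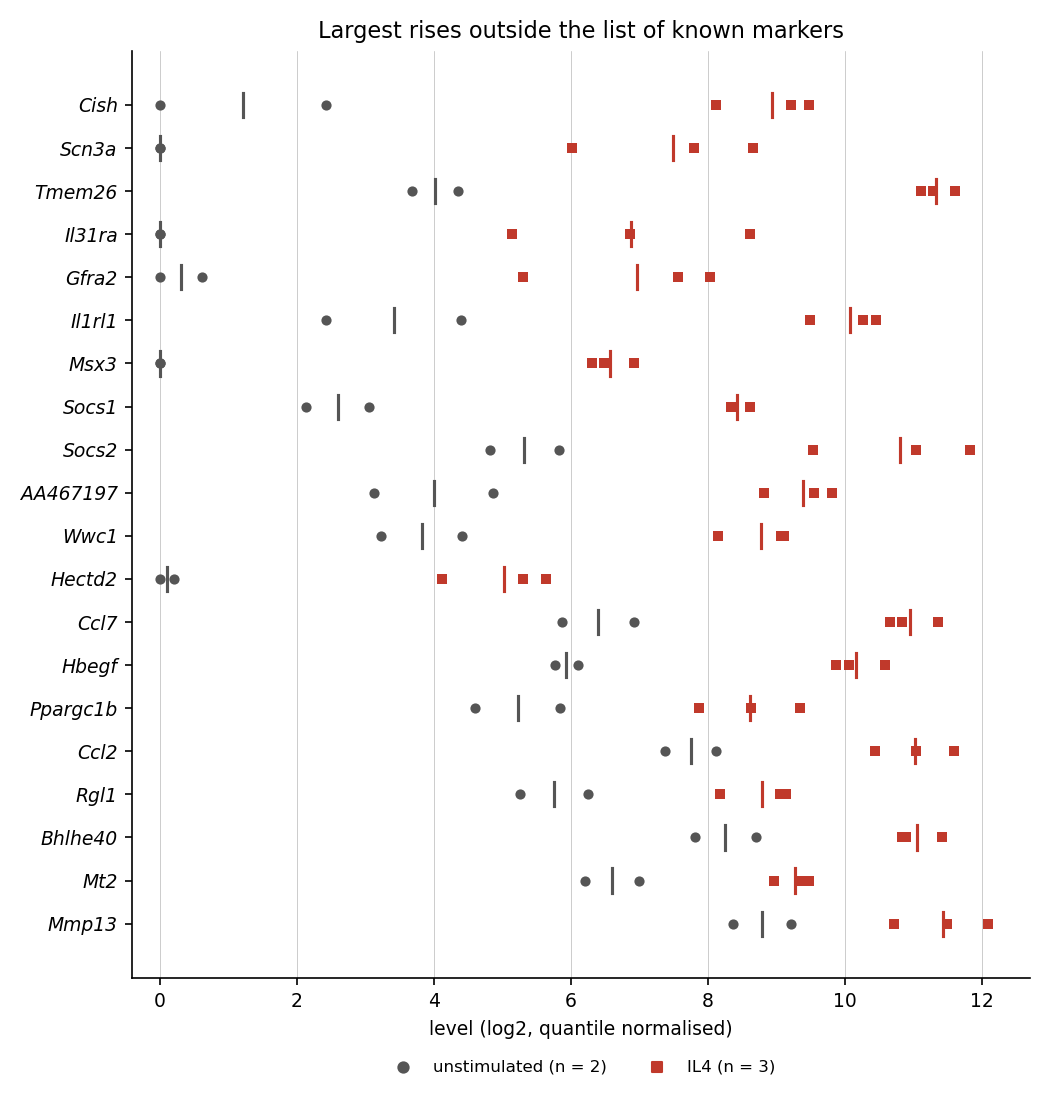
Log2 levels per library of the largest rises outside the list of known markers, with circles for the unstimulated libraries (n = 2), squares for the IL4 libraries (n = 3) and a short bar at each group's mean. The circles and squares do not overlap in any gene shown, and Scn3a, Il31ra and Msx3 start at 0 in both unstimulated libraries.

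Few metabolic genes rose. Of 22 arginine and polyamine genes 3 rose and none fell: Arg1, Slc7a2 and Gatm. Slc7a2, the cationic amino acid transporter that brings arginine into the cell, had the lowest p of all tested genes, at 5.99 and 6.33 without stimulus and at 11.30, 11.86 and 11.58 with IL4 (log2 change 5.42, SE 0.21, adjusted p = 0.000262). Gatm, which uses arginine in creatine synthesis, rose from 10.98 and 11.27 to 12.80, 12.68 and 12.24 (log2 change 1.44, SE 0.22, adjusted p = 0.0324). In the solute carrier list of 220 tested genes Slc7a2 was the only rise. The urea transporter Slc14a1 was its only fall, to 0. Slco5a1, an organic anion transporter outside that list, also fell, from 3.41 and 3.76 to 0 in every IL4 library (adjusted p = 0.0438). Hk2, hexokinase, was the only glycolysis gene of 27 that passed, at 7.96 and 8.08 against 9.52, 9.65 and 9.51 (log2 change 1.55, SE 0.24, adjusted p = 0.0328). Dhrs9, a retinol dehydrogenase, rose from 6.97 and 7.16 to 9.53, 10.11 and 9.16 (log2 change 2.54, SE 0.36, adjusted p = 0.0265). The metallothioneins Mt2 and Mt1, which bind zinc and copper, rose together, by 2.67 (SE 0.33, adjusted p = 0.0149) and 1.33 (SE 0.20, adjusted p = 0.0281). Slc7a2 was stable. Mt2 was lost without unstimulated replicate 2 (adjusted p = 0.0607), and Gatm, Hk2, Dhrs9 and Mt1 without 5 to 7 of the 8 libraries (up to 0.109, 0.117, 0.107 and 0.0888).

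Cholesterol-linked genes split. Ch25h, which makes the signalling oxysterol 25-hydroxycholesterol, had a value of 0 in each unstimulated library and stood at 7.58, 7.14 and 9.02 with IL4 (adjusted p = 0.0134). Apoe, the lipoprotein that carries cholesterol out of macrophages, fell from 12.61 and 12.09 to 10.17, 10.33 and 10.17 (log2 change -2.12, SE 0.21, adjusted p = 0.0134). Both were stable, and they were the only called genes among 21 cholesterol efflux and LXR targets, whose median was -0.36. None of 24 sterol synthesis genes passed.

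Genes of protein folding, ribosome assembly and mitochondria were higher in many single cases but almost none passed. Of 33 endoplasmic reticulum folding genes 18 did not overlap and were higher and 3 lower, with a median of 0.79, and 1 passed. It was Pdia4, a disulphide isomerase, at 9.82 and 9.60 against 11.72, 12.32 and 11.65 (log2 change 2.18, SE 0.25, adjusted p = 0.0134, and 0.0577 without unstimulated replicate 2). The chaperones Hsp90b1 and Calr had log2 changes of 0.88 and 1.47 (adjusted p = 0.142 and 0.162). Of 48 ribosome biogenesis genes 19 did not overlap and were higher and 0 lower, with a median of 0.77. For 76 mitochondrial ribosomal proteins these counts were 30 and 3 (median 0.46), and for 81 oxidative phosphorylation genes 26 and 2 (median 0.40). No member of these 3 lists passed limma's threshold, and their counts are to be read against the 11.7% and 14.7% of all tested genes given above. Cytosolic ribosomal proteins, by contrast, had a median of 0.00, with 10 of 83 not overlapping and higher and 11 lower. Of 54 cell cycle genes none passed either, with 2 not overlapping and higher and 12 lower.

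**Figure D3:**
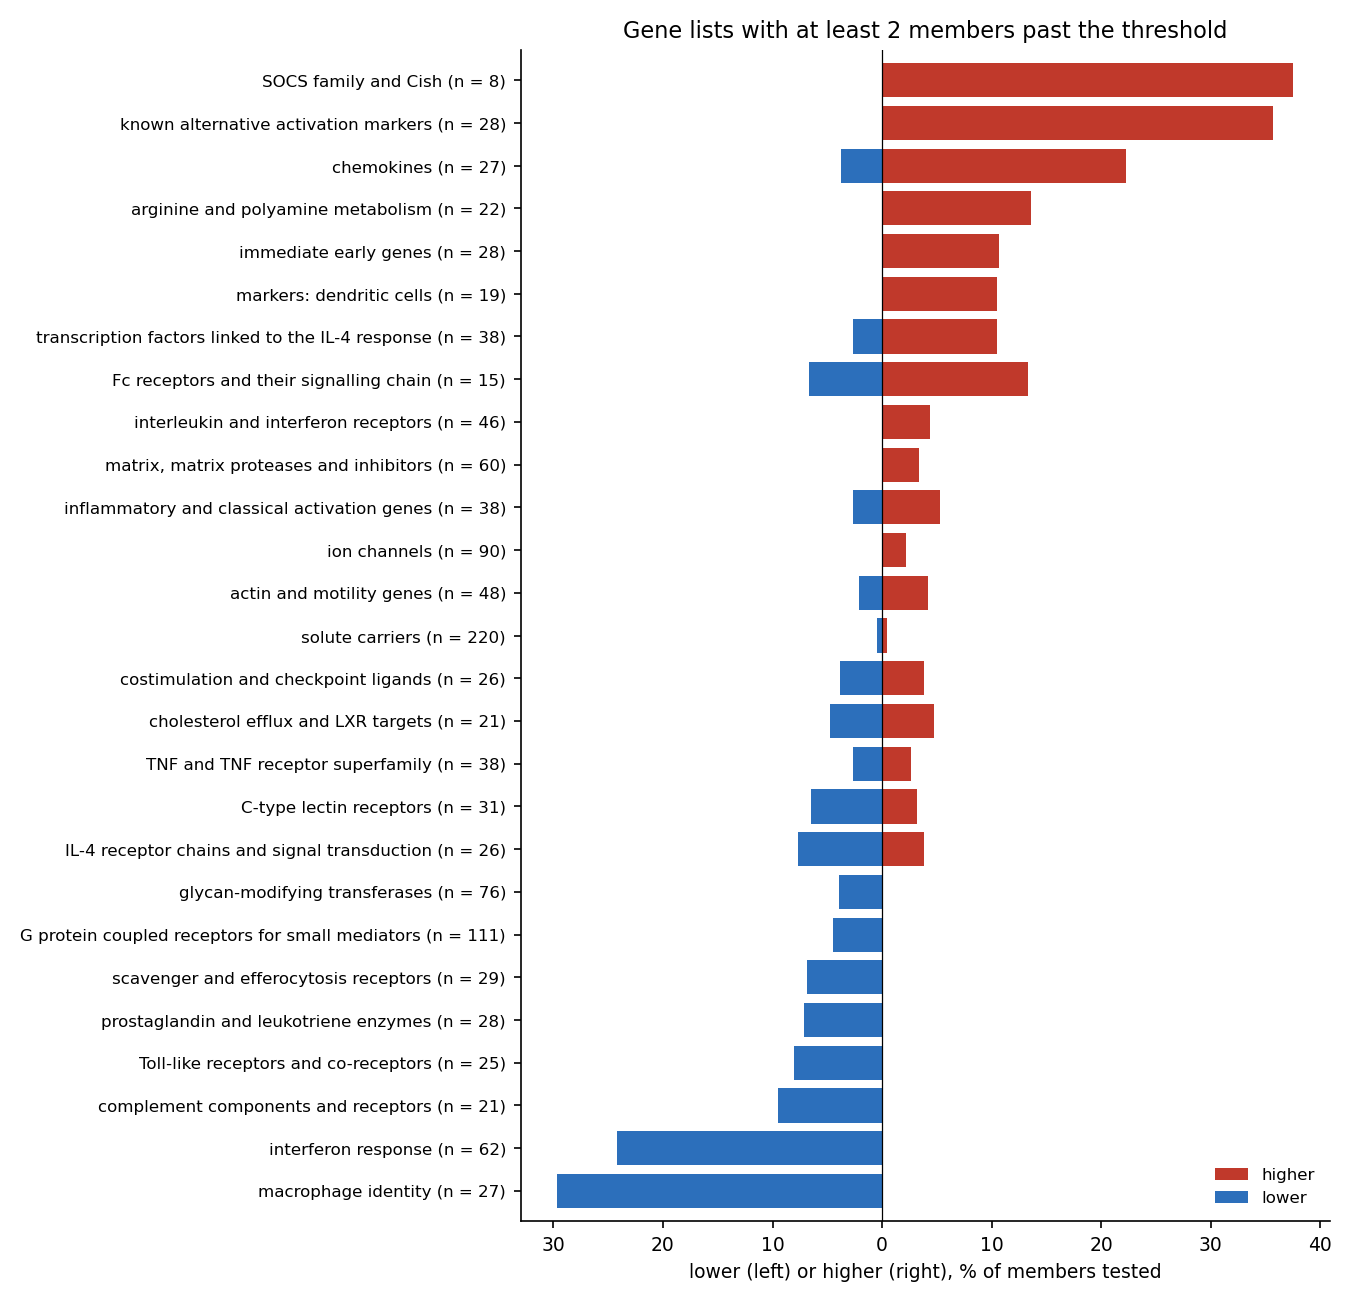
Share of tested members that passed adjusted p 0.05, lower to the left and higher to the right, for each gene list with at least 2 such members (n, members tested). Known markers and the SOCS family lie at the right end with 10 of 28 and 3 of 8 higher, and macrophage identity and interferon response genes at the left end with 8 of 27 and 15 of 62 lower.

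On the side of the falls, interferon response genes were the list with the most members. Interferons act through factors that include STAT2 and IRF9 on genes that block viruses, and macrophages keep a low level of these transcripts without infection. Of 62 such genes 15 fell and none rose, with a median of -1.56, and 39 did not overlap and were lower. Over all tested genes 0.793% fell, and 14.7% did not overlap and were lower. Ifit3, which binds viral RNA complexes, was at 7.27 and 7.52 without stimulus and at 0 in every IL4 library (adjusted p = 0.000335). Its near copy I830012O16Rik, which is not in the list, was at 5.26 and 4.33 and also at 0 with IL4 (adjusted p = 0.0163). Reads may be split between them. Oas2, which makes the activator of RNase L, was at 6.38 and 6.81 against 1.42, 0 and 1.17 (log2 change -5.73, SE 0.64, adjusted p = 0.0134). These genes thus went from a clear level to one at or near 0. Others kept a measured level: Rsad2 (viperin) was at 8.76 and 9.14 against 6.89, 6.89 and 6.42 (log2 change -2.22, SE 0.31, adjusted p = 0.0235). Ifit1 was at 7.41 and 8.10 against 4.12, 2.33 and 3.75 (log2 change -4.36, SE 0.68, adjusted p = 0.0328). Irf7, the factor that amplifies interferon production, was at 6.41 and 7.84 against 4.19, 3.68 and 4.68 (log2 change -2.94, SE 0.46, adjusted p = 0.0328). The remaining falls of the list were Cxcl10, Oasl1, Oasl2, Iigp1, Ifi203, Slfn8, Dtx3l, Ly6e, Trim30a and Parp14. Of the upstream factors, Stat2 and Irf9 did not pass: Stat2 was at 10.40 and 10.32 against 9.28, 8.76 and 9.50 (adjusted p = 0.112), and Irf9 had a log2 change of -0.94 (adjusted p = 0.358).

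The count of 15 depended on the libraries and on scaling. It was 4 to 11 with single libraries left out, with 4 without unstimulated replicate 2, LPS plus IFNg replicate 2 or LPS plus IFNg replicate 3, and it was 11 with housekeeping scaling and 0 with only the 5 libraries (1 with the same 13615 genes tested). Ifit3, Oas2 and Parp14 were stable. I830012O16Rik was lost without LPS plus IFNg replicate 2 or 3 (adjusted p up to 0.0667), and Rsad2, Irf7 and Ifit1 without 6, 6 and 7 of the 8 libraries (up to 0.122, 0.0905 and 0.205).

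Genes that mark macrophages fell in part, while Csf1r and Emr1 did not pass. Of 27 macrophage identity genes 8 fell and none rose, with a median of -0.78 and 19 not overlapping and lower. For comparison, 0.793% of all tested genes fell and 14.7% were not overlapping and lower. Mpeg1, the pore-forming perforin-2, was at 11.79 and 12.05 against 9.56, 9.24 and 8.94 (log2 change -2.67, SE 0.35, adjusted p = 0.0177). C5ar1, the receptor for complement fragment C5a, was at 10.87 and 10.85 against 8.54, 7.94 and 7.83 (log2 change -2.76, SE 0.26, adjusted p = 0.0124). Cx3cr1, the fractalkine receptor, was at 7.84 and 7.77 against 4.02, 5.09 and 4.80 (log2 change -3.17, SE 0.51, adjusted p = 0.0373). Aif1, Cd14, Fcgr1, Lyz2 and Mertk completed the falls, with changes from -1.63 for Lyz2 to -3.48 for Fcgr1. Csf1r, the receptor for the growth factor of the lineage, was at 10.40 and 10.05 against 9.39, 9.61 and 9.63 (log2 change -0.68, adjusted p = 0.205), and Emr1 had a log2 change of -0.76 (adjusted p = 0.418). With housekeeping scaling 5 of the 27 list members were lower, and with single libraries left out 2 to 5 were. The lowest count, 2, came without unstimulated replicate 1 or LPS plus IFNg replicate 2. C5ar1 was stable, Mpeg1 lost its call when either control library was left out (up to 0.106), and Cx3cr1 whichever library was left out (up to 0.117).

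The summed linear level of the identity genes was 90170 and 91160 without stimulus and 42680 to 55810 with IL4. Marker lists of other cells also had lower sums in several cases. For 19 dendritic cell markers the sum was 17820 to 18040 against 8199 to 11170, with 2 higher (Ccl17 and Ccl22) and Ccr7, Cd209a and Xcr1 at 0 in all 5 libraries. For 15 neutrophil markers it was 2528 to 2987 against 1192 to 1960, with none past the threshold and none at 0 throughout, and for 16 fibroblast markers 3877 to 4752 against 2322 to 3136, with none past and Fap at 0. The sums overlapped for 18 mast cell, basophil and eosinophil markers (106.5 to 187.5 against 64.68 to 227.4, 7 at 0 throughout, Fcer1a and Gata1 among them) and for 16 erythroid and megakaryocyte markers (769.8 to 910.3 against 677.5 to 1532, 4 at 0). They also overlapped for the 20 markers of T, B and NK cells (9.881 to 31.34 against 7.894 to 77.25). The part of these levels in the falls of the identity genes was not tested.

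Some innate sensors and lectin receptors fell. Tlr2, the receptor for bacterial lipoproteins, was at 4.29 and 5.04 without stimulus and at 0 in every IL4 library (adjusted p = 0.0137). Cd14, which presents lipopolysaccharide and lipoproteins to these receptors, was at 7.22 and 7.88 against 5.07, 4.29 and 4.68 (log2 change -2.87, SE 0.44, adjusted p = 0.0315). These were the called members of 25 Toll-like receptor and co-receptor genes, whose median was -0.92, where 0.793% of all tested genes fell. Clec4d, a C-type lectin for fungal and mycobacterial glycolipids, was at 10.54 and 10.16 against 7.82, 7.28 and 7.36 (log2 change -2.86, SE 0.24, adjusted p = 0.00717). Clec12a, an inhibitory lectin that senses dead cells, fell as well, from 9.69 and 9.63 to 8.21, 8.30 and 8.25 (log2 change -1.41, SE 0.18, adjusted p = 0.0168). Clec7a (dectin-1), a known target of IL4, was at 12.20 and 12.13 against 13.44, 13.31 and 12.76 and did not pass (log2 change 1.004, SE 0.35, adjusted p = 0.3). So within 31 C-type lectins 2 fell while 1, Mgl2, rose. Stab1, a scavenger receptor, fell from 9.55 and 8.91 to 6.21, 6.48 and 6.19 (log2 change -2.94, SE 0.36, adjusted p = 0.0144), and 4632428N05Rik, the checkpoint protein VISTA, fell by 1.96 (SE 0.24, adjusted p = 0.0144). Tlr2, Clec4d and 4632428N05Rik were stable, though Tlr2 is one of the falls to 0 from a low level that are described separately below. Clec12a was lost without IL4 replicate 1 (adjusted p = 0.0502), Stab1 without unstimulated replicate 1 (0.0583) and Cd14 in all cases but LPS plus IFNg replicate 1 (up to 0.135).

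Some genes for lipid mediators and their receptors fell. Hpgds, the haematopoietic synthase of prostaglandin D2, was at 10.42 and 10.59 without stimulus and at 7.29, 7.49 and 8.27 with IL4 (log2 change -2.82, SE 0.30, adjusted p = 0.0134). Alox5ap, the protein that hands arachidonic acid to 5-lipoxygenase for leukotriene synthesis, was at 8.88 and 9.12 against 7.26, 7.20 and 7.22 (log2 change -1.77, SE 0.19, adjusted p = 0.0134). They were the called genes among 28 prostaglandin and leukotriene enzymes, whose median was 0.12. Of 111 G protein coupled receptors for small mediators 5 fell and none rose, with a median of 0.00: C5ar1, Ptafr, Lpar6, S1pr2 and Gpr34. Of all tested genes 0.793% fell. Ptafr, the receptor for platelet-activating factor, was at 8.80 and 8.62 against 5.97, 6.62 and 7.03 (log2 change -2.17, SE 0.32, adjusted p = 0.0265). Lpar6, a lysophosphatidic acid receptor, was at 8.61 in both unstimulated libraries and at 5.87, 4.64 and 5.40 with IL4 (log2 change -3.31, SE 0.40, adjusted p = 0.0144). S1pr2, a receptor for sphingosine 1-phosphate, fell by 1.93 (SE 0.27, adjusted p = 0.0238), and Gpr34, a lysophosphatidylserine receptor, went from 3.41 and 3.68 to 0 in all IL4 libraries. Of these 5 receptors 4 bind lipids, and the list was written to hold receptors for lipids, purines, peptides and other small mediators. How many of the 111 bind lipids was not counted, so the 4 are no result about lipid receptors as a group. B4galt6, which makes lactosylceramide, also fell, from 11.63 and 11.51 to 9.997, 9.96 and 9.85 (log2 change -1.63, SE 0.19, adjusted p = 0.0144). Hpgds, Alox5ap, Gpr34 and B4galt6 were stable, though Gpr34 was also at 0 in every LPS plus IFNg library, a pattern described separately below. Lpar6 lost its call when either control library was left out (adjusted p up to 0.0653), and Ptafr and S1pr2 without 6 and 5 of the 8 (up to 0.106 and 0.0638).

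Among transcriptional regulators, Maf fell from a high level. It is a factor of resident macrophages and of IL-10 expression. Maf was at 12.76 and 12.45 without stimulus and at 10.22, 9.12 and 8.77 with IL4 (log2 change -3.24, SE 0.40, adjusted p = 0.0149). Pou2f2, the octamer factor Oct-2, was at 10.15 and 9.74 against 7.56, 6.66 and 7.50 (log2 change -2.70, SE 0.30, adjusted p = 0.0134). Nfkbiz, an atypical IkappaB protein needed for secondary NF-kB targets, was at 5.81 and 6.25 against 0 in every IL4 library (adjusted p = 0.0144). All 3 stood at higher levels with LPS plus IFNg than with IL4, as given below. Secreted products that fell included Cd5l, a scavenger receptor domain protein that supports macrophage survival, from 9.58 and 9.54 to 6.998, 7.26 and 6.33 (log2 change -2.70, SE 0.33, adjusted p = 0.0146). Sepp1, the selenium carrier selenoprotein P, fell by 2.66 (SE 0.39, adjusted p = 0.0265). Prdx5, a peroxiredoxin, was the only called gene of 51 NRF2 and redox genes, at 8.65 and 8.66 against 6.67, 7.18 and 6.94 (log2 change -1.73, SE 0.21, adjusted p = 0.0144). Nfkbiz and Prdx5 were stable, Pou2f2 was lost without unstimulated replicate 1 (adjusted p = 0.0503), Maf and Cd5l when either control library was left out (up to 0.0756 and 0.0714) and Sepp1 without 5 of the 8 libraries (up to 0.122).

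**Figure D4:**
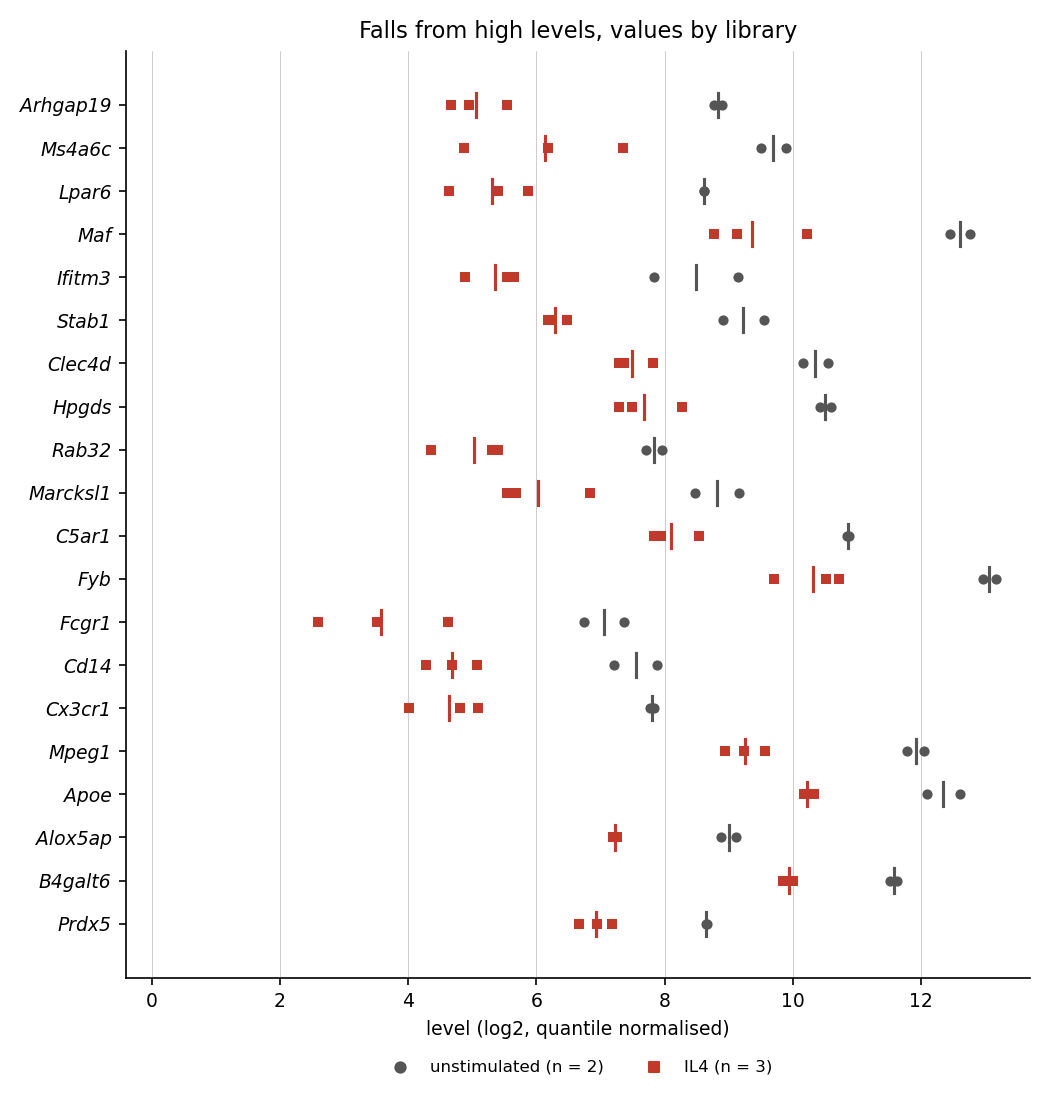
Log2 levels per library of the 12 largest falls with both group means at least 5 and of 8 further falls described in the text, with circles for the unstimulated libraries (n = 2), squares for the IL4 libraries (n = 3) and a short bar at each group's mean. Every square lies left of the circles of its gene, with the longest distance for Arhgap19, at the top.

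Falls that end at 0 need separate reading. Of the 108 falls, 26 were listed at 0 in all 3 IL4 libraries, and 21 of these had an unstimulated mean under 5, Tlr2 (4.67) among them. Of the 26, 16 were also at 0 in all 3 LPS plus IFNg libraries, among them Nlrc3 (5.17 and 6.18 without stimulus), Sncaip, Abhd15, Galnt9, Gpr34 and Tnfrsf13c. Over all tested genes, 304 were above 0 in both unstimulated libraries and at 0 in every IL4 library, against 27 with the reverse pattern, and for LPS plus IFNg these numbers were 338 and 68. The number of zeros per library, given above, moves with this pattern, and its part in these falls was not tested. The other 82 falls had a value other than 0 in at least 1 IL4 library. Of the 70 rises, 10 were at 0 in both unstimulated libraries. For 2 further rises, Vmn1r175 and 2200002K05Rik, the unstimulated values lay below 0 and the IL4 values at 0, so nothing above 0 was measured, and 68 rises remain without them.

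The libraries with LPS plus IFNg show which of these changes differ between the stimuli. Over all tested genes 6.96% were higher with IL4 than with LPS plus IFNg and 5.91% lower. Of the 70 rises, 46 were also higher than with LPS plus IFNg, 3 were lower and 21 did not pass. Of the 108 falls, 57 were lower than with LPS plus IFNg, 3 were higher and 48 did not pass. A gene chosen for being high or low with IL4 enters this comparison with the same IL4 libraries, so these counts are partly set by the choice. Against the unstimulated libraries, 51 of the 108 falls were also lower with LPS plus IFNg and 22 were higher. Of the 70 rises, 24 were also higher there and 4 were lower. Of the 48 falls that did not pass, 45 were also lower with LPS plus IFNg than without stimulus, C5ar1, Hpgds, Cx3cr1, Lyz2 and Tlr2 among them. This second comparison shares the unstimulated libraries, so its counts are partly set by the choice too. Hbegf, Wwc1, Il1rl1 and Bhlhe40 were higher with IL4 than with LPS plus IFNg, by 3.66, 4.38, 8.87 and 4.08 (adjusted p = 0.000305, 0.00131, 0.00131 and 0.000743). Slc7a2, by contrast, stood at 11.64, 11.68 and 11.66 with LPS plus IFNg, inside the range of the IL4 libraries (difference -0.08, SE 0.19, adjusted p = 0.86). Klf4 (difference -0.12, SE 0.32), Ccl2 (-0.36, SE 0.35), Hk2 (0.10, SE 0.22), Mt2 (0.26, SE 0.29) and Rgl1 (-0.02, SE 0.39), an exchange factor for Ral GTPases, also did not pass, and the SEs show how large a difference could have been missed.

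The 3 rises that went further with LPS plus IFNg were Socs1, AA467197 and Rnf19b. Socs1 stood at 10.91, 10.80 and 11.13 with LPS plus IFNg (difference -2.51, SE 0.27, adjusted p = 0.00141). AA467197, the mouse counterpart of a mitochondrial protein linked to cytochrome c oxidase, rose with IL4 from 4.87 and 3.12 to 9.55, 9.82 and 8.82 and stood at 12.73, 12.18 and 12.37 with LPS plus IFNg (difference -3.03, SE 0.47, adjusted p = 0.00621). Rnf19b is a ubiquitin ligase, and its difference was -0.98 (adjusted p = 0.0239). The 3 falls that went further with LPS plus IFNg were Igfbp4 (difference 3.20), Rnf150 (1.58) and Gnpda1 (1.12), with adjusted p = 0.000301, 0.0131 and 0.0045. Apoe was at 10.38, 10.07 and 10.18 with LPS plus IFNg, which overlaps its IL4 values (difference 0.01, SE 0.19, adjusted p = 1). The interferon genes lay far apart, as with Ifit3, at 0 with IL4 and at 11.21, 11.56 and 11.82 with LPS plus IFNg. Maf and Pou2f2 were lower with IL4 than with LPS plus IFNg (differences -2.63 and -3.10, adjusted p = 0.00371 and 0.000631). Nfkbiz, at 0 with IL4, stood at 7.44, 6.30 and 6.45 with LPS plus IFNg (adjusted p = 0.000969).

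**Figure D5:**
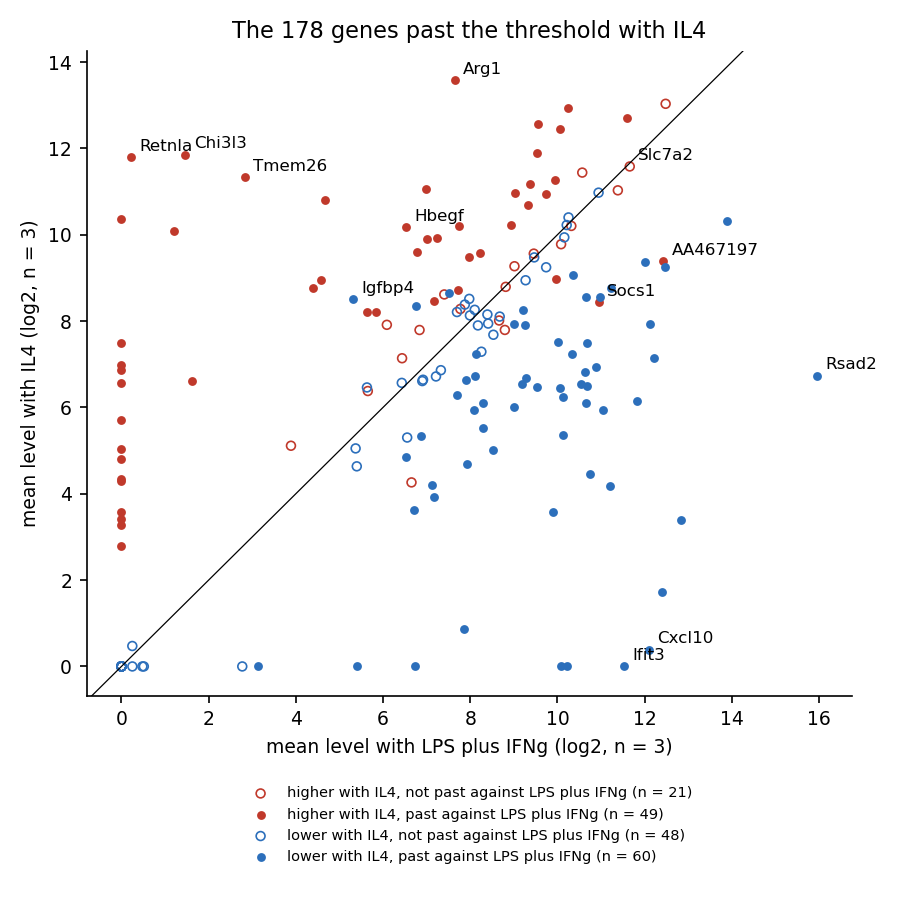
Mean log2 level with IL4 (vertical axis, n = 3) against LPS plus IFNg (horizontal axis, n = 3) for the 178 genes called with IL4, filled where the direct comparison passed adjusted p 0.05 and hollow where it did not, with the line of equal levels. Retnla and Tmem26 lie far above the line, Slc7a2 on it, and Ifit3 and Cxcl10 at the lower right.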

How the data were processed

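Levels were measured by 3' end RNA sequencing in 2 unstimulated, 3 IL4 and 3 LPS plus IFNg libraries. Per the labels' protocols, barcoded oligo-dT primers made the cDNA, Actb qPCR set how samples were pooled, and the stranded libraries went through PCR. Molecular identifiers are not mentioned, so PCR copies are not told from separate molecules. TopHat and mm9 are named in the submitters' processing notes. No source used here gives the counting step. The authors deposited log2 values in 1 table, quantile normalised per its name, with 20259 RefSeq rows, and how zero counts were treated is not stated there.

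From these values, 1 row without a symbol and 6643 genes with the same value in every library were left out, and limma 3.58.1 (R 4.3.3) was fitted to 13615 genes in all 8 libraries by group means. Residual degrees of freedom were 5, and the prior variance followed the mean level with 2.31 degrees of freedom. Tests are two-sided and adjusted by Benjamini and Hochberg over all tested genes, with a threshold of 0.05. The limma code was tested on simulated data. The members and the 67 gene lists were chosen with earlier results of these data known. Genes named are the 20 largest rises and falls, the 12 largest with both means at least 5, up to 4 members past the threshold per direction and 2 not past from each list, and 19 chosen genes; not each of them is described, and 2 genes are not reported here. Alternatives were other filters, scalings, weights, thresholds and samples in the fit, and each library left out.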

Additional observations from a re-analysis of the deposited data

How the results depend on the processing

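Every result here rests on 2 unstimulated libraries, and depth is unknown. The numbers of genes called moved with the setting, from 70 higher and 108 lower. An adjusted p of 0.01 left 8 and 2. With only the 5 libraries they were 7 and 0, or 16 and 54 where the same 13615 genes were tested, an alternative added after the data were seen. Leaving out the lowest 0.25 of genes by mean gave 110 and 136, and a mean of at least 5 gave 113 and 158, of which 48 and 81 were called before; in both, fewer genes were tested. With single libraries left out the higher genes numbered 36 (without LPS plus IFNg replicate 2) to 123 (without unstimulated replicate 2) and the lower ones 45 (without LPS plus IFNg replicate 2) to 183 (without unstimulated replicate 1). Where 1 unstimulated library remains, it is assumed to vary like the other groups. Without unstimulated replicate 1, 36 of the 70 and 52 of the 108 were called again, and without unstimulated replicate 2, 34 and 49. No intensity trend, 1 added on the linear scale, array weights, housekeeping or ribosomal protein scaling and values below 0 set to 0 kept the counts within 1.5 times (59 to 80 higher, 73 to 115 lower). The genes were not all the same. Of the 70 and 108, 52 and 70 were called again with no intensity trend and 58 and 73 with housekeeping scaling. Ribosomal protein scaling kept 56 and 88, and the others in this group at least 67 and 106. The cause of the other moves in the counts was not tested. With the replicate number as a block 7 genes were higher and 1 lower (665 and 773 at an unadjusted p under 0.05). Same-numbered libraries did not deviate together (correlations -0.079 to 0.072). Such deviations, taken from means of few libraries, cannot settle whether the numbers pair them. Of the 178 called genes, 109 also passed between IL4 and LPS plus IFNg, and 89 to 151 did under the alternatives. No called gene changed direction under any alternative run. Of the genes named that did not pass, Il4ra ranged from -0.79 without unstimulated replicate 2 to 0.90 without unstimulated replicate 1 and was -0.15 without IL4 replicate 1, and Stat6 ranged from -0.56 without unstimulated replicate 2 to 0.30 without unstimulated replicate 1 and was 0.13 without IL4 replicate 3. Socs3 ranged from -0.078 without IL4 replicate 3 to 1.05 without IL4 replicate 1.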

Other observations

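Some falls at well-measured levels belong to none of the gene groups described in the report. Fyb, the adaptor ADAP that links receptor signals to integrins, was among the most abundant genes that fell, at 13.17 and 12.96 without stimulus and at 10.52, 9.70 and 10.71 with IL4 (log2 change -2.75, SE 0.33, adjusted p = 0.0144). Arhgap19, a GTPase-activating protein for RhoA, had the largest fall with both means at least 5, from 8.90 and 8.77 to 4.67, 4.94 and 5.53 (log2 change -3.78, SE 0.55, adjusted p = 0.0265), and stood at 4.39, 5.91 and 5.81 with LPS plus IFNg. Itgal, the integrin chain CD11a, fell by 1.67 (SE 0.23, adjusted p = 0.0249), and the protease Ctsh by 1.57 (SE 0.23, adjusted p = 0.0265). These 4 lost their calls when either control library was left out (adjusted p up to 0.0698, 0.111, 0.101 and 0.0754), and all but Fyb also without 3 or 4 of the other libraries in turn.

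Further genes kept their call whichever library was left out and were chosen for mention after their values were seen. Cd93, a surface glycoprotein involved in clearing dying cells, went from 10.96 and 10.78 to 8.54, 7.94 and 8.15 (log2 change -2.66, SE 0.29, adjusted p = 0.0134). Arrdc3, an arrestin-domain protein of receptor trafficking, went from 10.64 and 10.34 to 8.74, 8.44 and 8.47 (log2 change -1.94, SE 0.20, adjusted p = 0.0134). Por, the reductase that feeds electrons to cytochrome P450 enzymes, went from 9.19 and 9.31 to 7.61, 7.48 and 7.48 (log2 change -1.73, SE 0.19, adjusted p = 0.0134). In each of these 3 genes the IL4 libraries lay below both unstimulated ones. With LPS plus IFNg, Arrdc3 and Por stood higher than with IL4 (IL4 minus LPS plus IFNg -2.10 and -2.49, adjusted p = 0.000631 and 0.000258), whereas Cd93 did not pass that comparison (difference 0.51, adjusted p = 0.284). Neurl3, an interferon-linked ubiquitin ligase, Klhl24, a ubiquitin ligase adaptor, and Nuak1, an AMPK-related kinase, fell by 2.30, 2.28 and 2.58 (adjusted p = 0.0134, 0.0144 and 0.0144).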
